A study of Mus musculus with 78 samples.

Results

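Pax7, Myf5, Calcr, Chrdl2, Megf10, Vcam1, Notch1, Notch3, Hey1 and Heyl, a set of 10 mouse genes of muscle stem cells and the Notch pathway, were followed by symbol through every group of a study of ageing soleus muscle. They are 10 of the 36904 genes in the count table and 10 of the 18218 that passed the filter on low counts. Bulk RNA sequencing was done on total RNA of the soleus, a calf muscle of mixed slow and fast fibres, from C57Bl/6 mice of both sexes, with 30 libraries labelled female and 48 labelled male. Mice on control feed were 6 months (4 females, 6 males), 12 months (6 and 6), 20 months (6 and 9) or 28 months old. Controls of 28 months carry a batch label, with 6 females and 5 males in batch 1 and 7 females and 10 males in batch 2. A further 12 males of 28 months, all in batch 2, were fed calcium alpha-ketoglutarate (CaAKG, a metabolite of the citric acid cycle given as its calcium salt), which made up 2% of their diet. All libraries of 6, 12 and 20 months are in batch 1. The 6- and 12-month mice were bought from Invivos and the 20-month mice from the Jackson Laboratory, and the 28-month mice were a separate cohort for which no supplier is given, so age cannot be told apart from supplier and cohort in any comparison with the 6- or 12-month mice beyond that between them, nor between 20 and 28 months. The sources do not say that each library is 1 animal (2 libraries of 12-month females share an animal tag and were summed), so p-values measure the spread between libraries labelled as replicates.

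Satellite cells are the stem cells of skeletal muscle and lie between the fibre and its basal lamina. Pax7 is the transcription factor that defines them, Myf5 commits them to the muscle lineage, and the calcitonin receptor Calcr is associated with their quiescence. Notch receptors are cut by proteases after a neighbouring cell presents a Delta or Jagged ligand, and the freed intracellular domain joins the DNA-binding protein Rbpj to switch on Hes and Hey genes, a signal that keeps satellite cells quiescent. The same receptors also act in blood vessels, where Notch1 and Notch4 are known from endothelium and Notch3 from smooth muscle cells and pericytes.

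Library totals ran from 19460372 to 81637535 counts. The 7 slow-fibre markers, which define the labelled muscle, summed to 18506 to 48388 CPM, the usual scaling of counts to the library total, in 76 of 77 replicates and to 7853 CPM in a 12-month female library. Sex-linked transcripts went against the label in 5 libraries (females of 6 months replicate 3 and of 12 months replicates 1 and 4, males of 6 and of 12 months replicate 3). Keratin or neutrophil transcripts from skin or marrow stood above 100 CPM in 9 libraries, 3 of them among the 6 batch 1 females of 28 months. Members were counted at very different depth: the median library held 934 counts of Notch3, 579 of Notch1, 348 of Heyl, 243 of Hey1 and 172 of Vcam1, against 97 of Pax7, 80 of Myf5, 44 of Megf10, 31 of Chrdl2 and 18 of Calcr. Calcr and Megf10 had no count in 2 libraries each, Chrdl2 and Vcam1 in 1 each. Per kilobase of transcript and averaged over libraries, Notch3 was the highest at 3.14 CPM per kilobase, followed by Hey1 at 2.78, Heyl at 2.1, Notch1 at 1.67, Vcam1 at 1.48 and Myf5 at 1.1. Chrdl2 (0.589), Pax7 (0.427), Megf10 (0.171) and Calcr (0.131) were lower on the same scale. In a whole-muscle extract, fewer cells of a type and less RNA per cell cannot be told apart.

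The receptors Notch1 and Notch3 were the members called in both sexes. Both were higher at 20 than at 6 months, by 1.63 to 2.07 on the log2 scale in females and males. In batch 1 males of 28 months both were lower again, as Notch3 was in batch 1 females. The reported comparisons of 28 months with younger ages used batch 1 alone. Mean Notch3 in females was 16.2 CPM in batch 1 and 34.4 CPM in batch 2 at 28 months, against 43.7 CPM at 20 months. In males these means were 19.4, 26.7 and 43.0 CPM. Vcam1 was higher in the older females. The stem cell genes Pax7, Myf5, Calcr, Chrdl2 and Megf10 and the Notch targets Hey1 and Heyl passed the threshold of an adjusted p of 0.05 (edgeR quasi-likelihood test, Benjamini-Hochberg over all genes) in none of the 15 comparisons. In the comparison of 20 with 6 months, 3 of 10 members were called in females, where 36% of all genes tested were called and 18.2% were called higher. In males 2 of 10 were called, against 44.6% of all genes and 22.6% higher. At 28 against 6 months the counts were 2 of 10 in females, with 18.9% of all genes called and 9.91% called higher, and 1 of 10 in males, with 16.1% and 6.76%. The members' shares were close to or below the background in these comparisons, so the number called is not a result about the set. Ranges of libraries that do not overlap are given below as a description only. The share of all genes tested whose ranges separate in the same way was not counted.

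**Figure D1:**
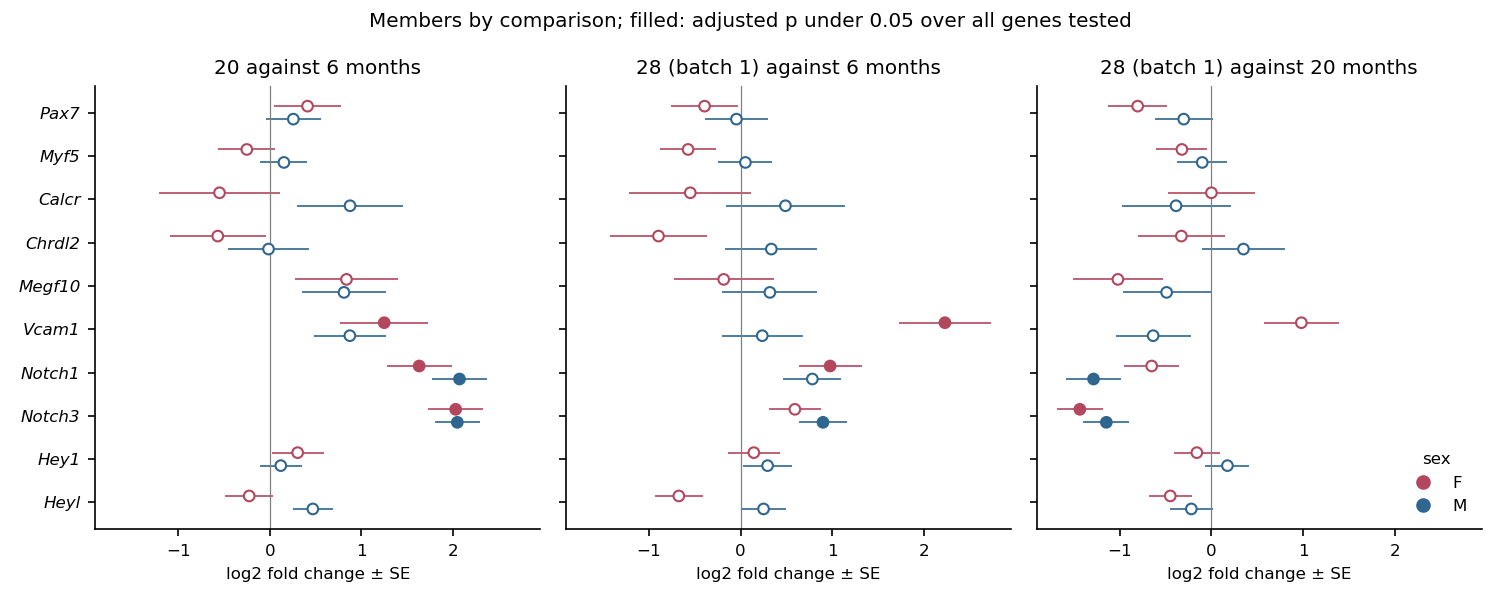
Log2 fold change with standard error (x axis) of the 10 genes (y axis) in 3 comparisons of age, females in red and males in blue. Filled points passed an adjusted p of 0.05 over all genes tested. Notch1 and Notch3 stand near 2 on the log2 scale at 20 against 6 months in both sexes, while Hey1, Heyl and Pax7 stay within 1 of zero in every panel.

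Pax7 transcripts were sparse and overlapped between all ages. In 6-month females the 4 libraries held 3.36, 2.09, 1.47 and 2.78 CPM, and at 20 months the lowest, median and highest were 2.27, 3.29 and 4.47 CPM. At 28 months, batch 1 females held 0.782, 1.95 and 2.55 CPM. The difference was 0.41 on the log2 scale (SE 0.365, adjusted p = 0.424, edgeR) at 20 months and -0.39 (adjusted p = 0.466) at 28 months against 6, and -0.81 (SE 0.324, adjusted p = 0.051) at 28 against 20 months, where the DESeq2 fit gave -0.76 with an adjusted p of 0.0477. The edgeR test also passed there, at -0.91 to -0.88 (adjusted p 0.0405 to 0.045), without 28-month replicate 13 or 20-month replicate 2 or 4, and did not pass with length and GC offsets (-0.58, adjusted p = 0.231) or without both sets of libraries in doubt (-0.83, adjusted p = 0.131). In males the lowest, median and highest were 0.9, 2.31 and 2.88 CPM at 6 months and 1.65, 2.4 and 4.76 CPM at 20 months, and the 5 batch 1 libraries of 28 months held 2.75, 3.54, 1.12, 1.91 and 1.18 CPM. The male differences from 6 months were 0.26 (SE 0.299, adjusted p = 0.527) and -0.05 (adjusted p = 0.96). Over the 11 groups the highest mean of Pax7 was 1.8 times the lowest.

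Myf5, the early myogenic factor, showed its largest difference in the youngest males. Its lowest, median and highest values were 1.07, 2.01 and 2.75 CPM at 6 months and 2.36, 3.2 and 5.0 CPM at 12 months. The ranges overlapped, and the difference of 0.79 on the log2 scale (SE 0.282, unadjusted p = 0.00627) had an adjusted p of 0.0587 by edgeR. It passed under 6 alternatives, among them DESeq2 (0.80, adjusted p = 0.0297), limma-voom (0.82, adjusted p = 0.0257) and the fit without the libraries against their sex label (0.85, adjusted p = 0.0449). It passed as well without 6-month male replicate 1 (adjusted p = 0.0482) or replicate 3 (adjusted p = 0.0486), but not with offsets for transcript length and GC content (0.64, adjusted p = 0.12). No member was called by edgeR at 12 against 6 months in males, where 9.85% of all genes were called and 1 of 10 members had an unadjusted p under 0.05. None was called in females either (0.231% of all genes), and there none had an unadjusted p under 0.05 and the limma and DESeq2 fits called none. Myf5 at the later ages was near its 6-month level, at -0.25 (adjusted p = 0.585) in females and 0.15 (adjusted p = 0.676) in males at 20 months.

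Calcr, Chrdl2 (a secreted antagonist of bone morphogenetic proteins) and Megf10 (a transmembrane receptor of satellite cells) were near the limit of what this depth resolves. Calcr group means ran from 0.258 CPM in 6-month males to 0.789 CPM in batch 2 females of 28 months. Those of Chrdl2 ran from 0.593 CPM in CaAKG males to 1.28 CPM in 6-month females. Megf10 was the one of the 3 whose ranges separated: the 6-month females held 1.74, 0.675, 1.35 and 1.06 CPM and the 20-month females 1.79, 2.02 and 2.91 CPM (lowest, median, highest), so that 6 of 6 lay above all 4. The difference was 0.84 on the log2 scale (SE 0.559) with an adjusted p of 0.264 by edgeR. In females and males limma-voom gave 1.31 (adjusted p = 0.000988) and 0.92 (adjusted p = 0.0345). The edgeR fit on only the compared groups gave 0.84 (adjusted p = 0.0222) and 0.79 (adjusted p = 0.0268). With offsets for transcript length and GC content the female difference was 0.07. All 6 batch 1 females of 28 months lay below the 20-month females in turn (-1.02, adjusted p = 0.108). Batch 2 females of 28 months held 0.0, 1.53 and 3.56 CPM (lowest, median, highest) and overlapped the 20-month females.

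**Figure D2:**
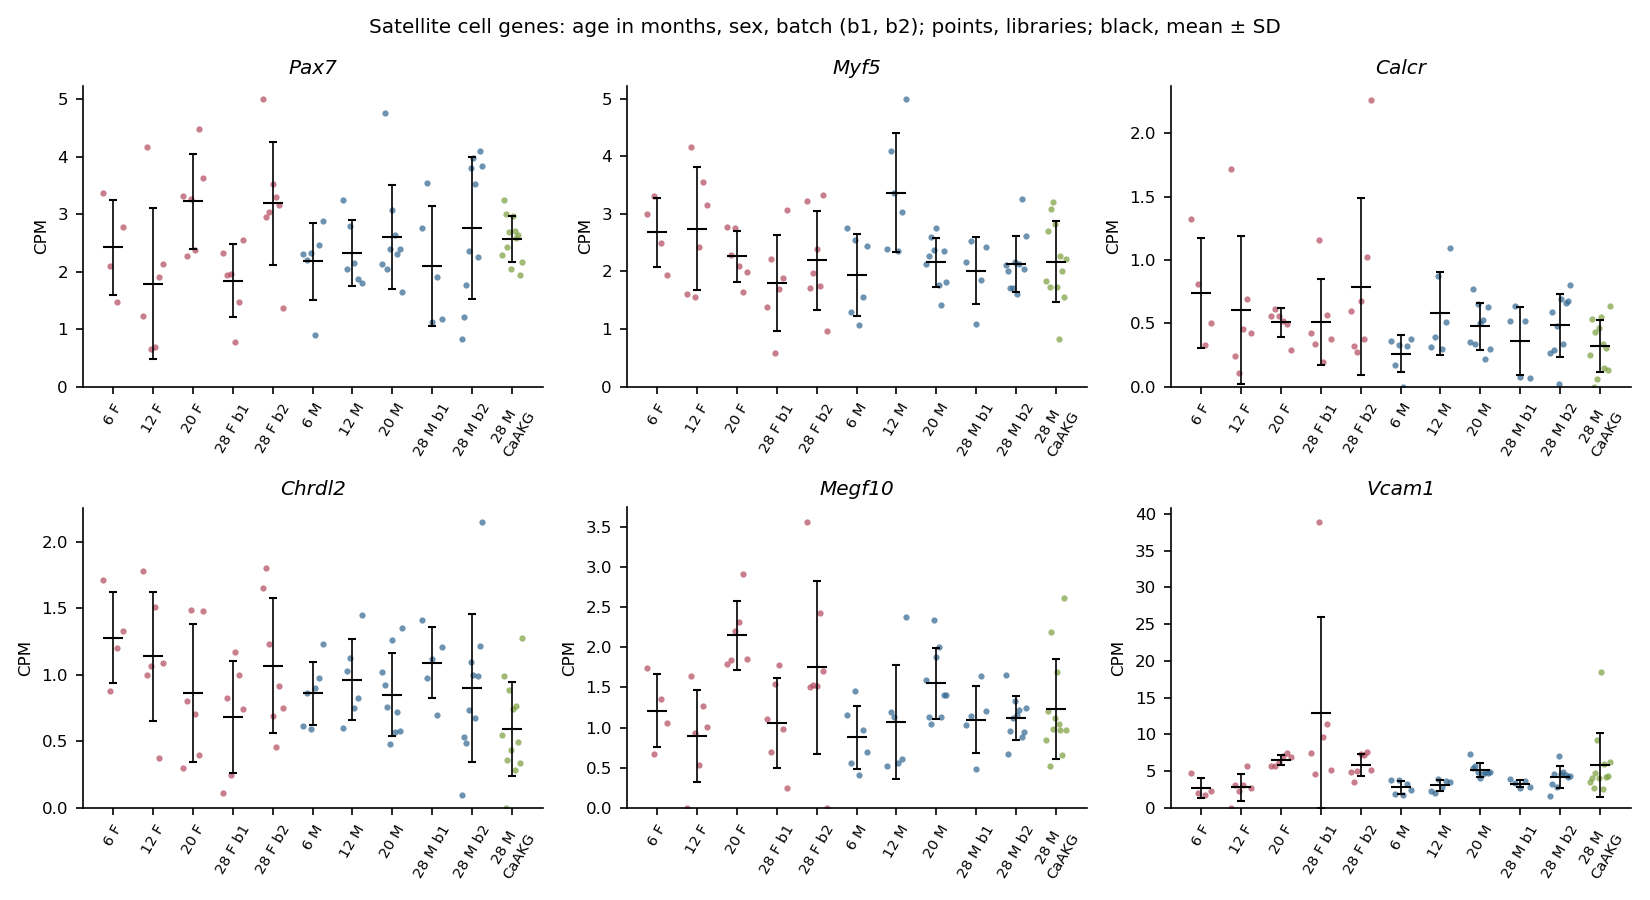
CPM (y axis) of the 6 satellite cell genes in every library (points) by age in months, sex and batch (x axis), with mean and SD in black. Pax7, Myf5, Calcr and Chrdl2 overlap between ages, and 1 library of 28-month batch 1 females stands at 38.9 CPM of Vcam1.

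Vcam1, a cell adhesion molecule of satellite cells that activated endothelium and marrow stroma also carry, rose with age in the females. The 6-month females held 4.74, 2.08, 1.83 and 2.33 CPM, against 5.73, 6.58 and 7.43 CPM (lowest, median, highest) at 20 months, and no library overlapped. The rise was 1.25 on the log2 scale (SE 0.483, adjusted p = 0.0352, edgeR). It lost its call, at 1.08 to 1.21 (adjusted p 0.0519 to 0.126), when 20-month female replicate 5 or 6-month female replicate 2, 3 or 4 was left out in turn, with length and GC offsets (1.14, adjusted p = 0.0825), and with endothelial and mural marker means as covariates (0.03, adjusted p = 0.983). In males the 20-month libraries (4.06, 4.87 and 7.37 CPM) also lay above all 6-month ones (1.73, 2.85 and 3.78 CPM), with 9 of 9 higher, but the difference of 0.87 (SE 0.39) had an adjusted p of 0.0617. It passed under 6 alternatives, with values of 0.85 to 1.02, and was -0.86 (adjusted p = 0.414) with the vascular marker means as covariates.

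At 28 months the batch 1 females held 7.52, 4.63, 38.9, 9.7, 11.4 and 5.17 CPM of Vcam1, and 5 of 6 lay above every 6-month library. The rise was 2.23 on the log2 scale (SE 0.503, adjusted p = 0.00149, edgeR). The library at 38.9 CPM (replicate 10) held 1670 CPM of summed neutrophil and marrow markers and the one at 11.4 CPM (replicate 12) held 585 CPM. Without replicate 10 the rise was 1.49 (adjusted p = 0.0206), without all libraries holding skin or marrow transcripts 1.29 (adjusted p = 0.043), and fitted on the 6- and 28-month females alone 2.24 with an adjusted p of 0.12. Against 20 months the difference was 0.98 (SE 0.411, adjusted p = 0.0614), and it passed, at 1.11 to 1.15 (adjusted p 0.0306 to 0.0395), without replicate 8, 9 or 13. Without both sets of libraries in doubt it was 0.03 (adjusted p = 0.955). The 28-month males of batch 1 (3.92, 3.45, 2.7, 3.64 and 2.9 CPM) overlapped the 6-month males (0.24, adjusted p = 0.793) and lay below all 20-month males (-0.64, SE 0.41, adjusted p = 0.335). Limma-voom (-0.69, adjusted p = 0.0308) and edgeR on only the compared groups (-0.65, adjusted p = 0.00216) called that fall from 20 months. With length and GC offsets it was -0.56 (adjusted p = 0.612). The difference between the sexes in the change from 6 to 28 months was -1.99 on the log2 scale (SE 0.656, unadjusted p = 0.0033), and its adjusted p was 0.152. For that difference, male change minus female change, no member passed (0.329% of all genes did) and 2 of 10, Vcam1 and Heyl, had an unadjusted p under 0.05. With endothelial and mural marker means as covariates Vcam1 passed there, at -2.73 (adjusted p = 0.0189).

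The receptors Notch1 (mm10 chr2:26457903-26516663, minus strand) and Notch3 (chr17:32120820-32166852, minus strand) have long transcripts of 9488 and 8016 bases. Because they moved together with age, their promoters are shown, the 250 bases before the RefSeq transcription start in build GRCm38.p6, 5′ to 3′ on the minus strand, at chr2:26503823-26504072 for Notch1 and chr17:32166891-32167140 for Notch3. Capitals mark the GC box, GGGCGG or its reverse complement CCGCCC.
Notch1: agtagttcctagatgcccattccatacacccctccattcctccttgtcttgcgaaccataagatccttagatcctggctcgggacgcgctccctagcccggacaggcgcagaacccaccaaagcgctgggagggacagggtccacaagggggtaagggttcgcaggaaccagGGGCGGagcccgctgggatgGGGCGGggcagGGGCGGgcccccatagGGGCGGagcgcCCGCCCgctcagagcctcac
Notch3: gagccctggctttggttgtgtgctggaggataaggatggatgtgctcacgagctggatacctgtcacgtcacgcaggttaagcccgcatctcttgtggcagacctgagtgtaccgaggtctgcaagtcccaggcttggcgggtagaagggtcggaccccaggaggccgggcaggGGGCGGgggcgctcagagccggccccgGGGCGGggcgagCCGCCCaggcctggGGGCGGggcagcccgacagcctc
Notch1 held 5 GC boxes between 78 and 20 bases before the start and Notch3 held 4 between 76 and 23 bases before it, none of them overlapping. Of the 32851 promoter windows of this length in the table, 32.7% held at least 1 GC box and 4.09% at least 4. GC content was 66.0% and 68.8%, against a median of 52.4% over all windows. Neither window held TGGGAA on either strand, the core of the Rbpj site (present in 21.6% of windows), or the E-box CANNTG of myogenic factors (66.2%), which says only that these letters are not in these windows. The table matched 5 of the 10 members. The Pax7 window held 1 GC box and the Myf5 window none, Calcr had 2 windows with 1 and none, and none of these windows held TGGGAA. A match is a description of the letters, not of binding.

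Notch3 was higher at 20 months than at 6 in every library of both sexes. The 6-month females held 14.0, 8.49, 9.41 and 11.1 CPM and the 20-month females 34.3, 44.7 and 52.1 CPM (lowest, median, highest), with 6 of 6 above. In males 8.25, 9.53 and 13.2 CPM at 6 months stood against 34.0, 41.5 and 58.2 CPM at 20 months, with 9 of 9 above. The gap between the nearest libraries of the groups exceeded the spread within the 6-month groups. Notch3 rose by 2.03 on the log2 scale in females (SE 0.3, adjusted p = 1.04e-07, edgeR) and by 2.05 in males (SE 0.246, adjusted p = 1.36e-10). Leaving out any 1 library gave 1.92 to 2.18 in females and 1.97 to 2.10 in males.

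Notch1 followed the same course. The 6-month females held 8.69, 7.56, 9.77 and 5.22 CPM and the 20-month females 19.8, 24.0 and 28.7 CPM. In males the values were 4.79, 6.38 and 8.6 CPM at 6 months and 21.7, 29.0 and 33.1 CPM at 20 months. Neither sex showed overlap, and Notch1 rose by 1.63 in females (SE 0.353, adjusted p = 0.00012, edgeR) and by 2.07 in males (SE 0.296, adjusted p = 1.52e-08). The 12-month libraries of both receptors did not pass the test against 6 months, with log2 differences of 0.26 (Notch1) and 0.03 (Notch3) in females and 0.02 and 0.05 in males and adjusted p of 0.771 to 0.986. The 12-month females were scattered, from 2.8 to 17.2 CPM of Notch1 and from 6.36 to 20.9 CPM of Notch3.

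At 28 months the mean levels of both receptors in the batch 1 animals lay between the 6- and 20-month means of their sex. Single female libraries lay outside the 6- and 20-month ranges. In males the 5 libraries held 22.2, 20.8, 15.6, 18.5 and 19.9 CPM of Notch3, all above the 6-month males and all below the 20-month males. Against 6 months Notch3 rose by 0.90 (SE 0.263, adjusted p = 0.0123), and against 20 months it fell by 1.15 (SE 0.25, adjusted p = 0.000723, edgeR). Notch1 held 12.4, 12.3, 8.36, 12.5 and 10.5 CPM, with 4 of 5 above every 6-month male and all 5 below every 20-month male. Its difference from 6 months was 0.78 (SE 0.317, adjusted p = 0.0803), and it fell by 1.29 from 20 months (SE 0.303, adjusted p = 0.0017). The difference from 6 months passed with limma-voom (0.87, adjusted p = 0.00504) and with edgeR on only the compared groups (0.83, adjusted p = 0.00779). It also passed without both sets of libraries in doubt (0.80, adjusted p = 0.011) and with both batches (0.90, adjusted p = 0.026). With length and GC offsets it was 0.505 (adjusted p = 0.302). In the comparison of 28 with 20 months in males, 2 of 10 members were called, against 17% of all genes and 8.78% called lower. With length and GC offsets the rise of Notch3 over 6 months was 0.64 (adjusted p = 0.0539) and the Notch1 difference from 20 months -0.85 (adjusted p = 0.0734), neither of them called. From 20 to 28 months 9 of 16 endothelial and 5 of 12 mural markers fell in males, and with both lists as covariates Notch3 differed by -0.29 (adjusted p = 0.387) and Notch1 by -0.58 (adjusted p = 0.252).

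The females of 28 months in batch 1 were more scattered. Notch3 stood at 34.6, 15.1, 13.5, 17.8, 9.43 and 6.58 CPM and Notch1 at 40.6, 11.6, 14.7, 14.6, 8.82 and 2.48 CPM. The highest of each is replicate 8, which held 11900 CPM of summed keratinocyte markers. Notch1 rose by 0.98 over 6 months (SE 0.345, adjusted p = 0.0369, edgeR), but the difference was 0.41 (adjusted p = 0.403) without replicate 8, and the call was also lost, at 0.83 to 1.10 (adjusted p 0.0641 to 0.123), when 6-month female replicate 2, 3 or 4 was left out. The Notch3 difference from 6 months was 0.59 (SE 0.285, adjusted p = 0.131), and it passed without replicate 13 (0.75, adjusted p = 0.0442). It was 0.27 (adjusted p = 0.671) without both sets of libraries in doubt, 0.25 (adjusted p = 0.532) with length and GC offsets and -0.04 (adjusted p = 0.93) with the vascular covariates. Against 20 months Notch3 fell by 1.44 (SE 0.252, adjusted p = 1.84e-05), the 1 member of 10 called in that comparison (29.9% of all genes were, and 12.6% were called lower), and Notch1 differed by -0.65 (adjusted p = 0.0877). Notch1 passed without replicate 8 (-1.20, adjusted p = 0.000871), and was -0.32 (adjusted p = 0.489) with length and GC offsets. In this comparison 10 of 16 endothelial and 7 of 12 mural markers fell, and with both lists as covariates Notch3 differed by -0.44 (adjusted p = 0.094) and Notch1 by -0.03 (adjusted p = 0.95).

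**Figure D3:**
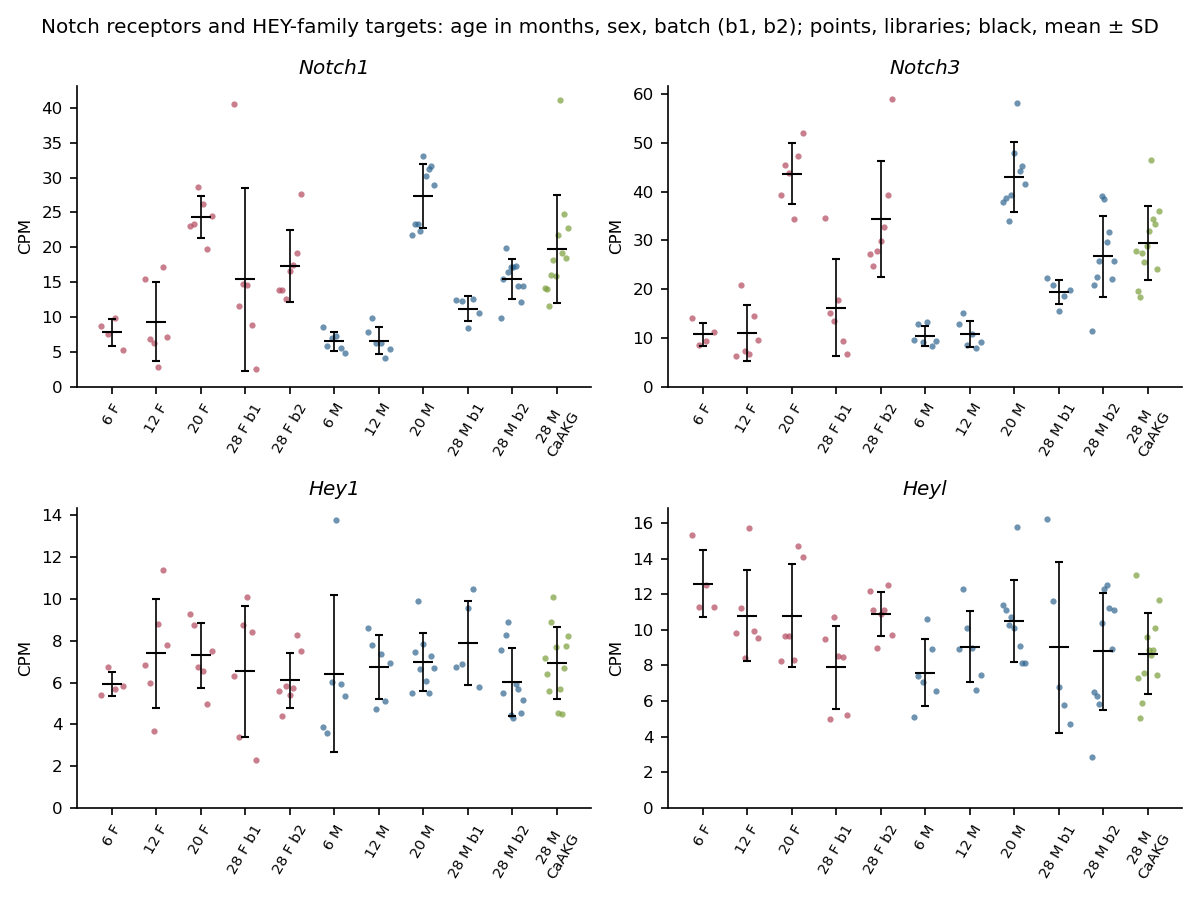
CPM (y axis) of Notch1, Notch3, Hey1 and Heyl in every library (points) by age in months, sex and batch (x axis), with mean and SD in black. The 20-month libraries of both receptors lie above all 6-month libraries of their sex, whereas those of Hey1 and Heyl overlap them.

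Hey1 and Heyl, the Hey-family repressors that Notch signalling switches on, were called in no comparison by the edgeR fit of all groups. Hey1 held 5.43, 6.74, 5.67 and 5.83 CPM in 6-month females against 4.99, 7.12 and 9.3 CPM at 20 months (lowest, median, highest), and 3.58, 5.66 and 13.8 CPM against 5.48, 6.72 and 9.91 CPM in males. The ranges overlapped in both sexes, with differences of 0.30 (SE 0.283, adjusted p = 0.45) and 0.12 (SE 0.23, adjusted p = 0.72). Its highest group mean was 1.33 times the lowest, the narrowest span of the 10 genes.

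Heyl held 15.3, 11.3, 12.5 and 11.3 CPM in 6-month females, 8.23, 9.67 and 14.7 CPM at 20 months and 4.99, 8.5 and 10.7 CPM in batch 1 females of 28 months. At 28 months 6 of 6 batch 1 females lay below all 4 of 6 months. Those of batch 2 (8.98, 11.1 and 12.5 CPM, lowest, median, highest) overlapped the 6-month females. The batch 1 difference of -0.68 (SE 0.262) had an adjusted p of 0.0586 by edgeR. It passed with length and GC offsets (-0.87, adjusted p = 0.0209), without the libraries holding skin or marrow transcripts (-0.97, adjusted p = 0.0416), with endothelial and mural marker means as covariates (-1.02, adjusted p = 0.00644) and without replicate 10 (-0.77, adjusted p = 0.0454), but not without both sets of libraries in doubt (-0.99, adjusted p = 0.0674). In males Heyl held 5.11, 7.25 and 10.6 CPM at 6 months and 8.15, 10.3 and 15.8 CPM at 20 months, a difference of 0.47 (SE 0.22, adjusted p = 0.0765). The edgeR fit on only the compared groups called it (0.46, adjusted p = 0.0228). With length and GC offsets it was 0.22 (adjusted p = 0.488). The 28-month males of batch 1 held 16.2, 11.6, 6.82, 5.77 and 4.72 CPM and overlapped the 6- and 20-month males. Against 20 months the difference was -0.22 (adjusted p = 0.619) by edgeR, and limma-voom called it lower (-0.60, adjusted p = 0.00973). The male minus female change at 28 months was 0.93 (SE 0.362, adjusted p = 0.241).

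Whether the receptors moved apart from these targets was tested within libraries, as the log2 ratio of the genes' values in CPM plus 1. These ratios were chosen after the values were seen, in a family of 24 with exact two-sided permutation tests of the libraries. The log2 ratio of Notch3 to Heyl was -0.22 ± 0.177 (SD, n = 4) in 6-month females and 1.95 ± 0.2 (SD, n = 6) at 20 months, and 0.42 ± 0.326 (SD, n = 6) and 1.94 ± 0.273 (SD, n = 9) in males. The increases were 2.17 and 1.52. Notch3 to Hey1 increased by 1.69 and 1.74, Notch1 to Heyl by 1.77 and 1.49, and Notch1 to Hey1 by 1.3 and 1.72, in females and males. Each of these 8 had the smallest p that its exact permutation can give, 0.00476 in females (adjusted 0.0114) and 0.0002 in males (adjusted 0.000959). Since the ratios were picked once the receptors were seen to separate, these p-values add no independent support. The ratios were also not adjusted for transcript length, which is 9488 and 8016 bases for Notch1 and Notch3 but 2423 and 4537 for Hey1 and Heyl. At 28 months the exact permutation test of Notch3 to Heyl in females, an increase of 1.04, gave p = 0.0238 (adjusted 0.0476), and the other 7 receptor to target ratios had adjusted p of 0.0519 to 0.473. Without the libraries in doubt that female increase was 1.07, over 3 libraries against 3, where the exact permutation test cannot go below p = 0.1.

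Transcript length moved with the change at 20 months. Across all genes tested with a known length, Spearman's correlation of length with the log2 fold change at 20 against 6 months was 0.578 in females and 0.532 in males, across genes that are not independent replicates. The median length of tested genes was 2868.5 bases, and Notch1, Notch3, Megf10 (7514 bases), Pax7 (5854) and Heyl (4537) are all longer, while Hey1 (2423) is shorter. Of 685 other genes with transcripts of 7500 to 10000 bases, a band chosen after the data were seen, 64.8% were called higher in females and 73.1% in males, with median log2 fold changes of 0.89 and 0.91 and 90th percentiles of 1.52 and 1.67. Notch3 lay above that 90th percentile in both sexes, as did Notch1 in both. Among the longest 889 genes (median 9567 bases), nearer to Notch1 in length, the 90th percentiles were 1.67 in females and 1.82 in males. Notch1, at 1.63 and 2.07, lay below the first and above the second. With offsets per library for length and GC content, Notch3 rose by 1.39 and 1.42 (adjusted p = 2.17e-05 and 7.76e-08, edgeR) and Notch1 by 0.88 and 1.35 (adjusted p = 0.0418 and 3.52e-05), while the band's medians were 0.09 and 0.13. In the same fits Hey1 differed by 0.46 and 0.26 and Heyl by -0.48 and 0.22, none of them called.

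**Figure D4:**
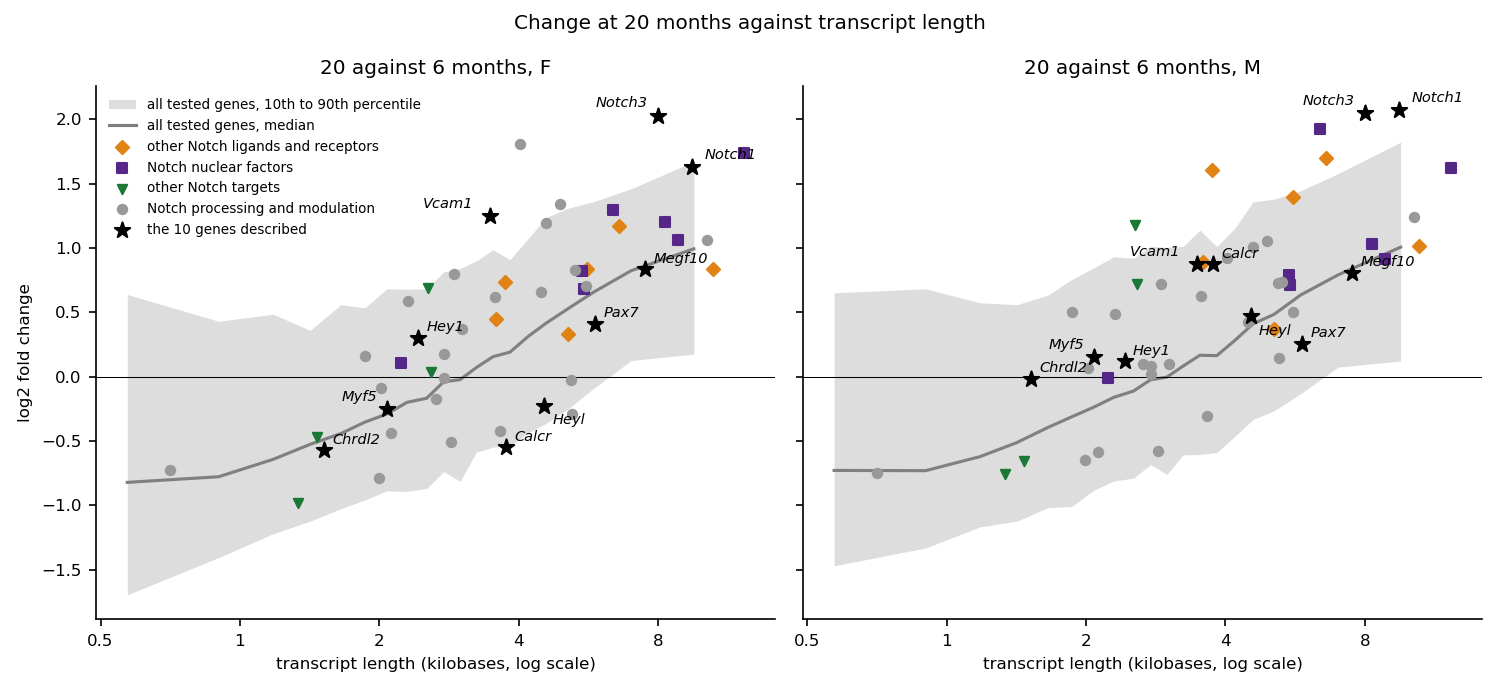
Log2 fold change at 20 against 6 months (y axis) against transcript length in kilobases (log scale) in females and males, with the median and the 10th to 90th percentiles of all tested genes in grey. Stars are the 10 genes described and the other symbols are genes of the wider Notch lists. Notch3 lies above the grey band in both panels and Notch1 above it in males and at its upper edge in females, while Hey1 lies inside it.

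Vascular markers moved with the receptors as well. The 16 endothelial markers summed to 306 to 735 CPM in 6-month females and 1053 to 1245 CPM at 20 months, and to 240 to 452 and 1065 to 1377 CPM in males. The 12 smooth muscle and pericyte markers summed to 353 to 614 and 987 to 1137 CPM in females and 341 to 450 and 973 to 1254 CPM in males. Of the endothelial markers 14 of 16 rose in each sex (1 fell in females), and of the mural ones 8 of 12 rose in females and 10 of 12 in males. Over all genes tested the share called higher was 18.2% in females and 22.6% in males. None of these markers was at 0 in all libraries of a group. Cdh5, the cadherin of endothelial junctions, had means of 26.4 ± 19.2 (SD, n = 4) and 101 ± 14.3 CPM (SD, n = 6) in females of 6 and 20 months.

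With the mean log2 level of both marker lists as covariates, the change of Notch3 at 20 months was 0.40 in females (SE 0.249, adjusted p = 0.263, edgeR) and -0.12 in males (adjusted p = 0.814), and that of Notch1 was 0.27 and 0.32 (adjusted p = 0.688 and 0.67). None of the 4 was called, and Heyl fell by 1.16 in females (adjusted p = 0.00613) in that fit. Set directly against the mural markers within libraries, the log2 ratio of Notch3 to their mean increased by 1.12 in females and 0.84 in males, with the exact permutation p at its smallest possible value (adjusted 0.0114 and 0.000959). The log2 ratio of Notch1 to the endothelial mean increased by 0.42 in females (exact permutation p = 0.124, adjusted 0.186) and 0.44 in males (exact permutation p = 0.00939, adjusted 0.0205). These ratios too were chosen after the values were seen and were not adjusted for transcript length. Their p-values therefore add no independent support. At 28 against 6 months in males, where Notch3 rose, 14 of 16 endothelial and 7 of 12 mural markers rose too. The share of all genes called higher there was 6.76%. With the covariates Notch3 differed by -0.41 (adjusted p = 0.345) in that comparison. The part of vascular RNA in these changes was not tested beyond these fits.

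**Figure D5:**
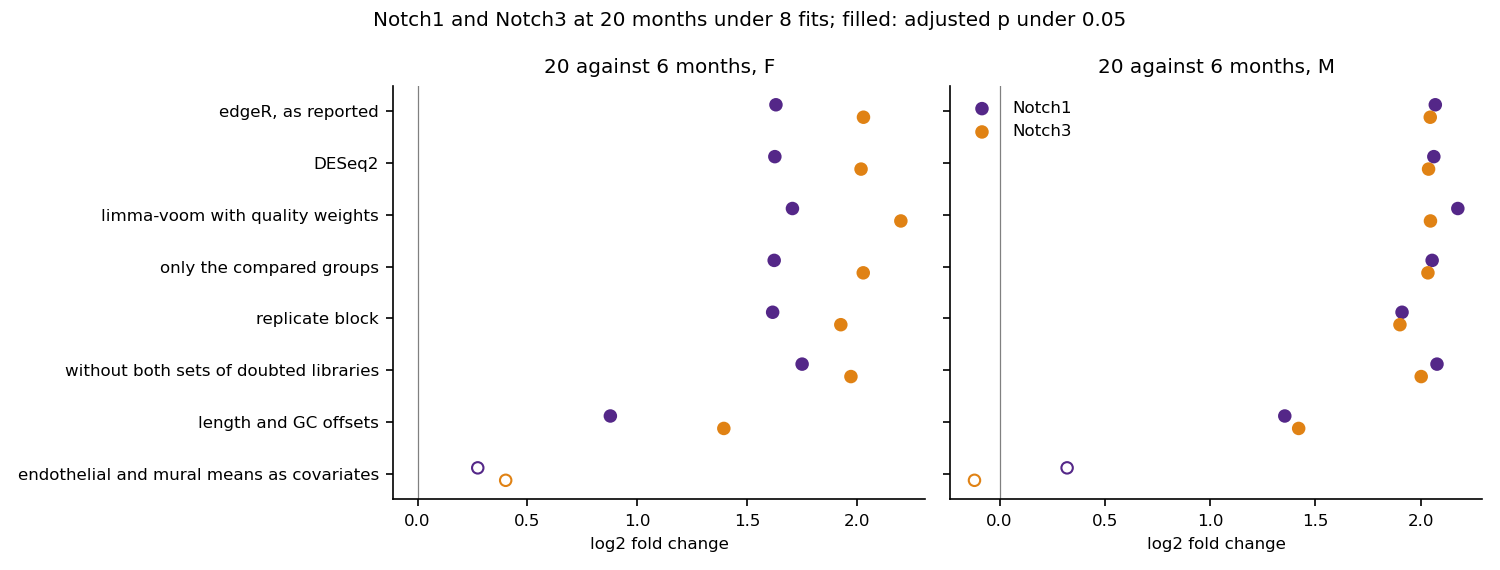
Log2 fold change (x axis) of Notch1 and Notch3 at 20 against 6 months under 8 fits (y axis), females left and males right. Filled points passed an adjusted p of 0.05. All fits but the one with endothelial and mural marker means as covariates give filled points, and in that fit the values run from -0.12 to 0.40.

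Genes of the wider Notch pathway were examined at 20 months in the same fit. Of the other 6 ligands and receptors, 4 rose in females and 6 in males, with list medians of 0.78 and 1.21 on the log2 scale against 0.00 and 0.02 over all genes. Of all genes tested, 18.2% were called higher in females and 22.6% in males. Notch4, the endothelial receptor, rose by 1.17 (SE 0.293) and 1.70 (SE 0.247), its ligand Dll4 by 0.74 (adjusted p = 0.0487, edgeR) and 1.60, Jag1 by 0.83 and 1.39, and Notch2 by 0.83 and 1.02. Of the 7 nuclear factors 6 rose in each sex, among them Rbpj, which binds the DNA (0.82 and 0.79), its coactivator Maml2 (1.3 and 1.93) and the corepressor Spen (1.74 and 1.62). Of 5 other Hes, Hey and Nrarp genes, 4 were tested: Hes6 fell in both sexes (-0.99 and -0.76) and Hes1 fell in males (-0.66). Whether Notch drives these genes in this muscle was not tested. With length and GC offsets the lists held 0 ligands or receptors higher in females and 4 in males, and 2 and 4 nuclear factors. No gene of the Hes, Hey and Nrarp list was called there. In those fits 7.62% of all genes were called higher in females and 13.4% in males.

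The processing genes were mixed. Of 23 genes, 9 rose and 5 fell in females and 8 rose and 5 fell in males. Of all genes, 36% were called in females and 44.6% in males, and 18.2% and 22.6% were called higher. Ncstn, a gamma-secretase subunit, rose by 0.80 and 0.72 and the ubiquitin ligase Itch by 0.83 and 0.74. The protease Adam10, which makes the first cut after ligand binding, rose by 1.20 and 1.01. Psenen, another gamma-secretase subunit, fell by 0.73 in females and 0.75 in males. Its transcript is short (708 bases), and the shortest 889 genes had median changes of -0.82 and -0.73. With length and GC offsets Psenen differed by -0.05 and -0.11 and was not called, while Ncstn, Itch and Adam10 were still called. In those fits the list held 6 genes higher and 2 lower in females and 7 and 3 in males. Of all genes, 18.9% were called there in females and 31% in males. At 28 against 20 months 2 of 6 ligands and receptors fell in each sex, Notch4 by 0.97 in females and 0.71 in males. Of 7 nuclear factors 3 were lower in females and 5 in males, and Hes6 (1335 bases) rose by 0.71 and 0.96. Of all genes, 12.6% were called lower in females and 8.78% in males. The length trend turned as well, with Spearman's correlations of -0.422 in females and -0.524 in males. Of the 685 genes of 7500 to 10000 bases, 50.7% and 48.3% were called lower. These comparisons share their 20-month libraries with those above, as the comparisons with 6 months share theirs.

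Among 17 other satellite cell genes, 16 were tested. At 20 months 5 rose and 2 fell in females and 6 rose and 2 fell in males, shares near the 36% and 44.6% of all genes. Met, the receptor for hepatocyte growth factor, rose by 1.3 and 1.03, and Sdc3, a proteoglycan of satellite cells, by 1.31 and 1.16. Msc, a repressor of myogenic factors, fell by 1.27 in each sex and Barx2, a homeobox factor, by 0.55 and 0.65. The named risers have longer transcripts (6809 and 4973 bases) than the named fallers (1741 and 1968 bases). With length and GC offsets 5 rose and none fell in females and 2 rose and 1 fell in males. In those fits 18.9% of all genes were called in females and 31% in males. Many of the satellite cell genes are also expressed by other cells of the muscle. Of 12 differentiation genes 3 rose and 1 fell in females and 3 rose and 4 fell in males at 20 months. The shares of all genes called were again 36% and 44.6%. Embryonic myosin Myh3 rose by 1.75 and 1.64 and the filament gene Des fell by 0.51 and 0.77. At 28 against 6 months 6 of 16 satellite genes rose and 1 fell in females, where 18.9% of all genes were called. Cxcr4, a chemokine receptor that leukocytes also carry, was up by 1.84 (adjusted p = 0.00674, edgeR) and Met by 0.76. In males 2 of the 16 rose and 1 fell, where 16.1% of all genes were called. In that female comparison 14 of 14 neutrophil and marrow and 4 of 12 keratinocyte markers rose too. Without both sets of libraries in doubt 2 of the 16 genes were higher and none lower in females, where 7.15% of all genes were called. Cxcr4 differed there by 0.48 (adjusted p = 0.544) and Met by 0.77 (adjusted p = 0.0519). Collagen V, a niche ligand of Calcr, had none of its 3 genes called in any comparison of the ages.

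Sexes, batches and feed were compared last. At 20 months no member differed between males and females (0.22% of all genes did by edgeR; 0 of 10 members had an unadjusted p under 0.05, and the limma and DESeq2 fits called 0). At 28 months in batch 1, 1 of 10 was called and 5.65% of all genes: Vcam1 differed by -1.95 on the log2 scale, lower in males (SE 0.454, adjusted p = 0.00763), with 5 of 5 males below every female. Without female replicate 10, the one with marrow transcripts, it was -1.21 (adjusted p = 0.0895), and without all libraries holding skin or marrow transcripts -0.99 (adjusted p = 0.177). In batch 2 no member differed by sex (1.3% of all genes; 0 of 10 at an unadjusted p under 0.05), Vcam1 standing at -0.47 (adjusted p = 0.595), though limma called Megf10 (-0.84, adjusted p = 0.0197).

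Between batches of 28-month females 2 of 10 members were called, with 19.8% of all genes. Notch3 was higher in batch 2 (24.7, 29.9 and 59 CPM, lowest, median and highest) by 1.09 (SE 0.243, adjusted p = 0.00154), and Vcam1 was lower (-1.14, SE 0.394, adjusted p = 0.0316). Endothelial markers were called higher in batch 2 for 8 of 16 and mural ones for 6 of 12, and with both as covariates Notch3 differed by 0.23 (adjusted p = 0.42). The Vcam1 call was lost without batch 1 replicate 10 (-0.38, adjusted p = 0.528), where neutrophil markers were high, and, at -1.12 to -1.05 (adjusted p 0.0512 to 0.0587), without batch 2 replicate 1, 2, 3 or 7. Pax7 differed by 0.79 (SE 0.315, adjusted p = 0.0628) and passed without batch 2 replicate 7 (adjusted p = 0.0383), but not without both sets of libraries in doubt (0.85, adjusted p = 0.133). Notch1 differed by 0.17 (adjusted p = 0.736), passed without batch 1 replicate 8 (adjusted p = 0.0472) and, with length and GC offsets, differed by -0.16 (adjusted p = 0.77). In males no member differed between batches by edgeR (1.02% of all genes; 0 of 10 at an unadjusted p under 0.05; DESeq2 0), and limma called 3, Notch1 (0.48), Notch3 (0.48) and Hey1 (-0.48).

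CaAKG feeding gave no member call against batch 2 control males of the same age. The edgeR test called 0.0659% of all genes, 0 of 10 members had an unadjusted p under 0.05, and limma and DESeq2 called none. Notch1 held 11.6, 18.4 and 41.2 CPM (lowest, median, highest) with CaAKG and 9.79, 16 and 19.9 CPM in controls (0.36, SE 0.221, adjusted p = 0.858). The library at 41.2 CPM held 6580 CPM of keratinocyte markers. Vcam1 held 2.53, 4.25 and 18.5 CPM against 1.58, 4.45 and 7.08 CPM (0.48, SE 0.307, adjusted p = 0.879), with the library at 18.5 CPM holding 986 CPM of neutrophil and marrow markers. Of those 14 markers 8 rose in the CaAKG group, and their part in the Vcam1 values was not tested. Pax7 held 1.94, 2.61 and 3.24 CPM against 0.824, 2.95 and 4.1 CPM (-0.11, SE 0.239). The ranges overlapped for all 3 genes. None of the wider satellite cell, differentiation or Notch lists had a called gene.

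Each gene's 11 groups were also ordered by their mean. For Notch3 the 20-month females (43.7 ± 6.23 CPM, SD, n = 6) and males (43.0 ± 7.1, n = 9) stood highest and the 6-month males (10.4 ± 2.07, n = 6) lowest. For Notch1 the 20-month males (27.3 ± 4.59 CPM, SD, n = 9) stood highest and the 6-month males (6.49 ± 1.38, n = 6) lowest. Of the 10 steps between neighbours in each gene's order, all lay within the larger SD of the pair except 1, that of Notch1 from batch 2 to batch 1 males of 28 months (15.4 ± 2.89, SD, n = 10, and 11.2 ± 1.79, n = 5). Steps between neighbours are small by construction when 11 means are sorted, so this count says nothing about groups further apart. The highest group mean was 4.69 times the lowest for Vcam1 (2.8 times without 28-month batch 1 female replicate 10, the library with marrow transcripts), 4.21 for Notch1, 4.2 for Notch3 and 3.06 for Calcr, and between 1.33 and 2.45 times for the other 6.

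Within groups, deviations of log2(CPM + 1) from the group mean over all 77 replicates describe which members varied together; such points share library composition and depth. Notch1 and Notch3 correlated most closely (Pearson 0.67, Spearman 0.6), followed by Notch3 and Heyl (0.48 and 0.46), and Pax7 with Myf5 reached 0.32 and 0.26. Notch3 tracked the mural markers (0.74) and the endothelial ones (0.71), and Notch1 the endothelial ones (0.59). Pax7 reached 0.14 with the endothelial markers and 0.06 with the mural ones. Heyl stood at 0.56 with fibroblast markers and Vcam1 at 0.57 with neutrophil and marrow markers, the latter 0.28 without the 2 farthest libraries. By the same measure the genes most like each member were Acap2 (0.83) and Tnks1bp1 (0.818) for Notch1, Abca3 (0.802) and Pdzd2 (0.757) for Notch3, Cd38 (0.742) and Sept4 (0.731) for Heyl, Tmem200b (0.649) and Tcim (0.631) for Hey1, and Itgb3 (0.723) and Ptprc (0.717) for Vcam1. For the sparse genes they were Proser1 (0.541) and Bicra (0.524) for Pax7, Psmc6 (0.546) and Ptbp2 (0.545) for Myf5, Zfp800 (0.612) and Nup205 (0.61) for Calcr, Arpp21 (0.528) and Gm10435 (0.451) for Chrdl2, and Invs (0.641) and Fbf1 (0.608) for Megf10. Without the 2 farthest libraries these values ran from 0.393 (Gm10435) to 0.781 (Abca3), with Itgb3 at 0.525, Ptprc at 0.583 and Invs at 0.471. All were the best matches among many genes, and no chance level was set.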

How the data were processed

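The 78 soleus libraries were grouped by the labels' age, sex, batch and feed. STAR 2.7.11b, RSEM 1.3.3, FastQC and the build mm10 are named in the submitters' processing notes; annotation, strand setting and filters were not stated. The values are expected counts per gene deposited by the authors for 36904 IDs; 8.99% were not whole numbers (tolerance 1e-06), since reads of near-identical or overlapping genes are divided by estimate. Another 55 columns carry names of no listed sample and stayed out.

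Values were rounded, the 2 libraries of 1 animal tag summed, and genes kept by filterByExpr (minimum count 10, total 15). One edgeR 4.0.16 quasi-likelihood fit (R 4.3.3) with TMM factors and 11 group means gave all 15 comparisons; p was adjusted by Benjamini-Hochberg over all 18218 genes, threshold 0.05. CPM use the TMM factors, except marker sums, which use library totals. Positions and lengths (longest transcript, coding where there is one) come from GENCODE M21, promoters from RefSeq. The fit was tested on simulated data.

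The members and gene lists were chosen with earlier results of these data known. Named genes are the 10 members, up to 4 called genes of smallest p per wider list and comparison described (genes named in one sex or age are repeated in the other), the 2 genes most like each member, and vascular markers; some genes the rule names are not reported here. No library copied another (lowest chi-square per gene between any pair: 15.4). Alternatives were RLE factors, other filters, the mitochondrial genome left out, a replicate block, length and GC offsets (splines of 5 degrees of freedom), doubted libraries left out, marker means as covariates, limma-voom 3.58.1 with quality weights, DESeq2 1.42.0, the compared groups alone, pooled batches and single libraries left out. The ratios, the length band, and the list genes and Vcam1 span without doubted libraries were added after seeing the data.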

Additional observations from a re-analysis of the deposited data

Results flagged for a closer look

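Of 100 gene and group pairs tested by Dixon's criterion, 12 held a library far from the others of its group, where chance alone gives about 5%. Vcam1 stood at 38.9 CPM in batch 1 female replicate 10 of 28 months (others 4.63 to 11.4), a library with 1670 CPM of neutrophil and marrow markers, and at 7.37 CPM in 20-month male replicate 1 (others 4.06 to 5.66). Notch1 stood at 40.6 CPM in batch 1 female replicate 8 of 28 months (others 2.48 to 14.7), which held 11900 CPM of keratinocyte markers. The part of these markers was not tested beyond the fits without such libraries. Notch3 stood at 59 CPM in batch 2 female replicate 7 of 28 months (others 24.7 to 39.4), and the same library held 2.26 CPM of Calcr (others 0.275 to 1.02). Hey1 reached 13.8 CPM in 6-month male replicate 4 (others 3.58 to 6.03), the library with the lowest Pax7 of its group, 0.9 CPM (others 2.2 to 2.88). Pax7 was 4.76 CPM in 20-month male replicate 2 (others 1.65 to 3.07) and Heyl 15.8 CPM in 20-month male replicate 6 (others 8.15 to 11.4). Among the sparse genes, Calcr was 1.72 CPM in 12-month female replicate 1 (others 0.103 to 0.693), a library against its sex label, and 0.291 CPM in 20-month female replicate 6 (others 0.494 to 0.614), and Megf10 was 2.38 CPM in 12-month male replicate 6 (others 0.525 to 1.2).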

How the results depend on the processing

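Of 182 alternative counts of called members 138 stayed within 1.5 times the reported count, and of 181 alternative fold changes and ratios 142 kept their direction and side of the threshold. With endothelial and mural means as covariates Notch3 in males turned to -0.12 at 20 against 6 months and -0.41 at 28 against 6 months; the cause was not tested. That fit called 1 member at 20 against 6 months in females, 0 in males, 1 at 12 against 6 months in males, 0 at 28 against 6 and 0 at 28 against 20 months in males, 1 between female batches and 1 for the sex by age difference.

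The replicate block gave 1 call at 28 against 6 months in females and 0 in males, 2 and 0 at 28 against 20 months, 0 between the sexes in batch 1 and 1 between female batches. Numbers are not shown to pair libraries: over 228 pairs of the same number the median correlation of deviations was 0.004, against 0 for 2439 others, and 17 exceeded 0.1. For 28 against 6 months in females the count was 1 without a filter, 1 without both sets of doubted libraries, 1 with limma and 0 with only the compared groups. In males it was 0 with length and GC offsets and 2 without both doubted sets, with limma, with only the compared groups and with both batches. For 28 against 20 months in females it was 2 with RLE factors, a minimum count of 50, and without skin or marrow libraries or both doubted sets, and 3 with limma and DESeq2; in males it was 1 with offsets and 4 with limma. For 20 against 6 months in males limma gave 4 and the compared groups alone 5. For 12 against 6 months in males a minimum count of 50, the fits without libraries against their sex label or both doubted sets, limma and DESeq2 each gave 1. Between the sexes in batch 1 the count was 0 without skin or marrow libraries and 0 with only the compared groups, and limma gave 1 in batch 2. Between female batches it was 1 without a filter, 1 with limma and 0 with only the compared groups, and between male batches limma gave 3.

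Leaving out single libraries gave 2 to 3 calls at 20 against 6 months in females and 2 to 2 in males, 1 to 3 and 1 to 1 at 28 against 6, 1 to 3 and 2 to 2 at 28 against 20, 0 to 0 and 0 to 1 at 12 against 6, 0 to 1 between the sexes and 1 to 3 between female batches, and 0 to 0 elsewhere. Depth limits Calcr, Chrdl2 and Megf10, with medians of 18 to 44 counts per library.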
